A study of Drosophila melanogaster with 30 samples.

Results

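Manual stimulation of flies during their normal active hours was measured as a control for the handling that sleep deprivation involves. It is described here through 6 of the 30 arrays of the series, chosen by their titles: 3 of stimulated flies and 3 of wake flies. Stimulated flies were disturbed by hand from ZT10 to ZT14 (ZT, zeitgeber time, is the number of hours since the lights came on) and were killed at ZT14. Wake flies were left undisturbed and killed at the same hour. A further 3 arrays of the same experiment hold undisturbed flies killed at ZT10, the start of the 4 h, and 21 arrays hold a separate deprivation experiment, in which flies were kept awake from ZT14. All flies were virgin Canton-S females (a wild-type strain) at 5 days of age, kept at 50 per vial, at 25 °C and with 12 h of light a day. Each array holds RNA of its own pool of 139 to 193 dissected brains, so differences between single flies or brain regions cannot be seen, and p-values measure the spread between pools. Whether pools came from separate days is not given in the sources used here.

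A stimulus that makes a fly move engages sensory, motor and arousal pathways, and neurons that fire more than usual switch on activity-regulated genes, many of which encode transcription factors. In flies the EGR-family factor encoded by sr is among these genes. The humoral immune response works through the Toll and Imd pathways, in which recognition proteins and cytokines activate NF-kB factors that switch on antimicrobial peptides and bomanins, small secreted peptides. These peptides come mainly from the fat body, a tissue that also lines the inside of the head. Chaperones of the Hsp70, Hsp90 and Hsp40 families keep proteins folded and fall or rise with temperature and protein load.

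Values are log2 signals of probe sets, and a difference of 1 means a doubling. The arrays were alike as a whole: the medians of the 9 arrays of this experiment lay between 4.88 and 4.93, and the correlation within a group was 0.992 to 0.996. Wake replicate 1 stood slightly apart, with a mean correlation of 0.9921 with the other 8 arrays against 0.9928 to 0.9946 for those, and it alone came from another chip lot. All 9 arrays were scanned on the same day. Neuronal RNA was present: the synaptic genes nSyb and brp read 7.81 to 7.95 and 6.93 to 6.95 in the stimulated arrays. In the wake arrays they read 7.81 to 7.89 and 6.87 to 7.07. These genes alone cannot tell dissected brain from whole head. The photoreceptor gene Arr2 read 8.21 to 8.99 in stimulated arrays and 8.15 to 8.53 in wake arrays. Fat body RNA was present as well, since the yolk protein gene Yp1 read 11.88 to 12.06 in stimulated arrays and 11.53 to 12.61 in wake arrays. In such bulk RNA, fewer cells of a type and less RNA per cell cannot be told apart.

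Few transcripts passed the test for stimulation, and nearly all of those rose. The adjusted p was under 0.05 for 12 of 13966 probe sets (0.0859%; limma with Benjamini-Hochberg adjustment over all of them), 11 higher (0.0788%) and 1 lower (0.00716%) in stimulated flies. They include sr, the bomanins BomS2 and BomS5, the filamin gene cher and the inositol oxygenase gene Miox. At an unadjusted p under 0.05, 982 probe sets passed (7.03%), 565 higher (4.05%) and 417 lower (2.99%). At 0.01, 241 passed (1.73%), 172 higher (1.23%) and 69 lower (0.494%). Of the 12, 10 have a single gene symbol and are named below. The other two, one higher by 0.81 and one lower by 0.53, have several symbols or none. The count rested on all 6 arrays: it was 3, 2 and 5 without stimulated replicate 1, 2 and 3, and 5, 1 and 2 without wake replicate 1, 2 and 3. Of the named genes, sr alone passed in every alternative fitted with limma.

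**Figure D1:**
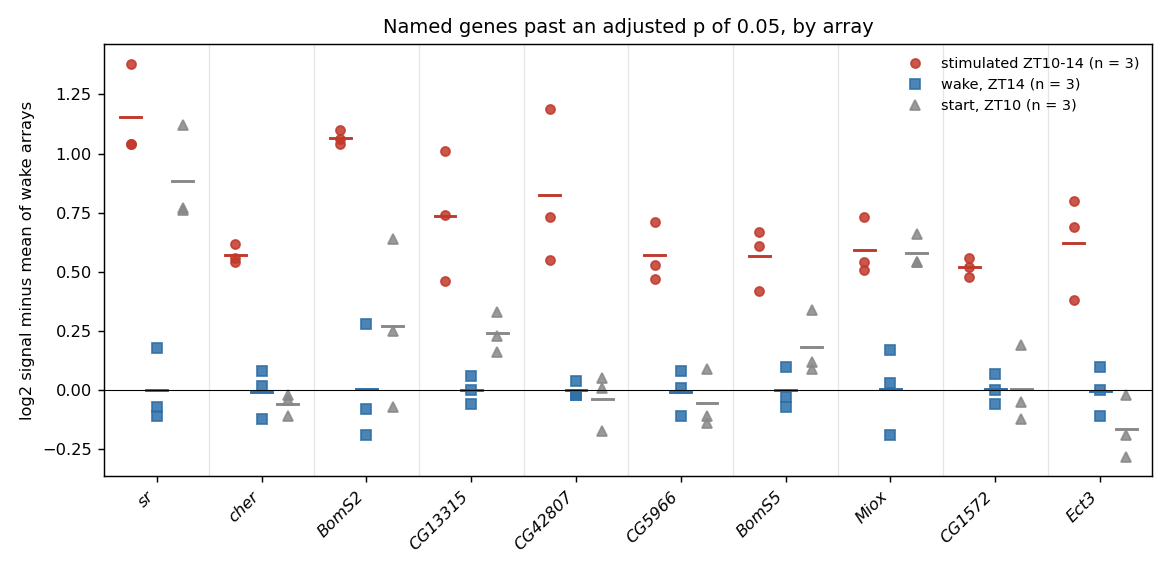
Log2 signal of the 10 named genes past an adjusted p of 0.05, as the difference from the mean of the wake arrays (vertical axis), by gene (horizontal axis). Points are arrays (stimulated, wake and ZT10, 3 each) and bars are group means. For each gene all stimulated arrays lie above all wake arrays, and for sr and Miox the ZT10 arrays lie near the stimulated ones.

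The smallest p was that of sr (stripe). Its signal was 7.08, 7.08 and 7.42 in the stimulated arrays, against 5.93, 5.97 and 6.22 in the wake arrays. The groups were far apart, and the difference was 1.15 ± 0.119 log2 units (SE; 2.23-fold; adjusted p = 0.00142). At ZT10 sr read 6.80, 6.81 and 7.16, above the wake arrays and overlapping the stimulated ones. Wake flies at ZT14 were 0.88 lower than flies at ZT10 (adjusted p = 0.00810), whereas stimulated flies were 0.27 higher than flies at ZT10 (adjusted p = 0.465). These comparisons share arrays with each other and with the main one. Leaving out single arrays moved the sr difference between 1.04 and 1.24.

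The other activity-regulated genes gave smaller values. Of 18 listed genes on the array, 1 rose (sr) and none fell, beside 0.0788% and 0.00716% of all probe sets. The median difference was 0.07, beside 0.00 over all 10844 named genes. Differences were negative for 6 of the 18, down to -0.25. At an unadjusted p under 0.05 (limma) 6 were higher and 1 was lower. Stimulated arrays all lay above wake arrays for 4 genes and below for 2, beside 6.77% and 5.75% of all probe sets. Next to sr, cbt, which encodes the zinc finger factor cabut, read 7.60, 7.69 and 7.47 in stimulated arrays and 7.29, 7.24 and 7.08 in wake arrays. Its groups did not overlap, but the difference of 0.38 ± 0.0896 did not pass (adjusted p = 0.257). The genes meng (0.31, adjusted p = 0.280) and CG17778 (0.36, adjusted p = 0.575) also had stimulated arrays all above wake arrays. The JNK phosphatase gene puc (0.33, adjusted p = 0.598) and Jra, the fly Jun gene (0.19, adjusted p = 0.702), had overlapping groups. Like sr, these 5 genes had lower means in wake flies than at ZT10, by 0.28 to 0.60, with no adjusted p below 0.10. Hr38, a nuclear receptor gene often used as an activity marker, stayed dim, with 2.89, 2.79 and 3.01 in stimulated and 2.91, 2.91 and 2.81 in wake arrays. CG14186 had a difference of 0.41 ± 0.225 with overlapping groups (adjusted p = 0.742), and of 0.21 without wake replicate 2 and 0.65 without wake replicate 1.

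Secreted immune peptides had the highest medians of the 32 pathway lists. Among 8 bomanins on the array, 2 rose, beside 0.0788% of all probe sets, and none fell. Their differences were positive for 7, beside 51.2% of all probe sets, with a median of 0.46. BomS2 read 6.66, 6.70 and 6.64 in stimulated flies, against 5.88, 5.41 and 5.52 in wake flies, so the stimulated pools were nearly equal and the wake pools spread. The difference was 1.06 ± 0.148 (2.09-fold; adjusted p = 0.0182). BomS5 was bright in every array, with 10.06, 9.87 and 10.12 in stimulated flies and 9.38, 9.55 and 9.42 in wake flies (0.57 ± 0.0921; adjusted p = 0.0385). With single arrays left out, BomS5 no longer passed in 6 of 6 fits and BomS2 in 5 of 6. The differences then lay between 0.51 and 0.64 for BomS5 and between 0.97 and 1.20 for BomS2. BomBc2 (0.45, adjusted p = 0.225), BomBc3 (0.63, adjusted p = 0.285), BomT3 (0.47) and BomT2 (0.25) were non-overlapping but did not pass. Of all probe sets, 6.77% had all stimulated arrays above all wake arrays. BomS6, also very bright, was at -0.03.

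All 8 named antimicrobial peptide genes had positive differences, beside 51.2% of all probe sets, with a median of 0.67 and a highest value of 1.71. None passed, and 4 were higher at an unadjusted p under 0.05 (limma), beside 4.05% of all probe sets. Mtk, the antifungal peptide metchnikowin, read 10.45, 10.36 and 10.44 in stimulated arrays and 9.72, 8.98 and 9.03 in wake arrays (1.17 ± 0.276; adjusted p = 0.260). DptB, a diptericin of the Imd response, read 8.88, 8.73 and 9.40 in stimulated arrays and 8.19, 7.09 and 6.60 in wake arrays (1.71 ± 0.455; adjusted p = 0.362). Drsl5, a drosomycin-like peptide gene, came close to the threshold, with 7.66, 7.50 and 7.05 against 6.47, 6.49 and 6.60 in wake flies (0.88 ± 0.160; adjusted p = 0.0662). In contrast Drs, drosomycin itself, ranged from 7.49 to 8.61 in stimulated arrays and from 6.48 to 7.94 in wake arrays. Without wake replicate 3 the median of the peptide list was 0.46. Undisturbed pools at ZT10 also varied: Mtk ranged from 9.31 to 10.82, DptB from 6.95 to 9.33 and Drsl5 from 6.95 to 7.64, with the third ZT10 pool highest for each.

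Upstream of the peptides, 26 recognition and signalling genes of the Toll and Imd pathways had a median of 0.04 and none passed. At the top stood PGRP-SB1, which encodes a secreted peptidoglycan recognition protein with amidase activity. Its signal was 8.20, 7.73 and 8.15 in stimulated flies and 7.28, 6.95 and 6.35 in wake flies (1.17 ± 0.207; adjusted p = 0.0566). PGRP-LB, an amidase that dampens the Imd response, differed by 0.36 (adjusted p = 0.362). The NF-kB gene Rel differed by 0.45 (adjusted p = 0.415), and spz, which encodes the Toll ligand, by 0.31 (adjusted p = 0.511). For these 4 genes the stimulated arrays lay above the wake arrays, while the other 22 list members had overlapping groups. Among 26 serpins, inhibitors of the proteases that act upstream of Toll and of melanisation, none passed and the median was 0.08. Spn28Dc, a regulator of melanisation, read 5.46, 5.29 and 4.77 in stimulated arrays and 4.52, 4.46 and 4.32 in wake arrays (0.74 ± 0.138; adjusted p = 0.0740). As background, 6.77% of all probe sets had all stimulated arrays above all wake arrays, and 5.75% all below.

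**Figure D2:**
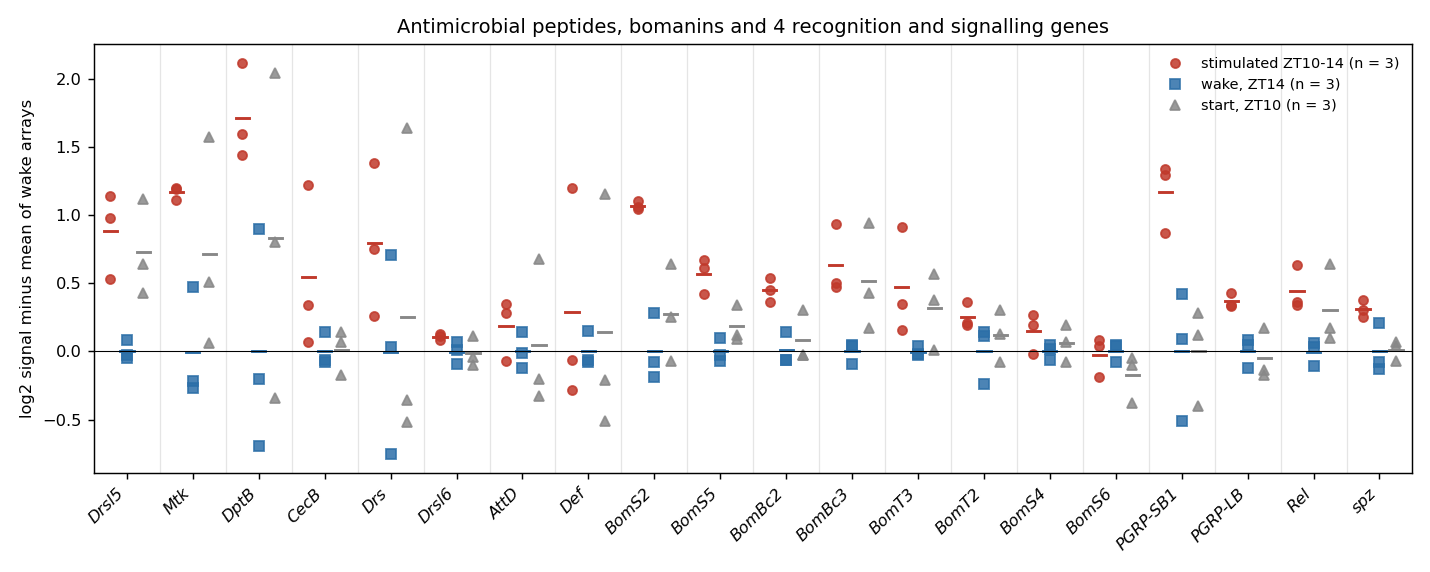
Log2 signal minus the mean of the wake arrays (vertical axis) for 8 antimicrobial peptide genes, 8 bomanins and the recognition and signalling genes PGRP-SB1, PGRP-LB, Rel and spz (horizontal axis), with points for arrays and bars for group means. BomS2 and Mtk are tight in stimulated flies, and for Mtk, DptB, Drs and Def the highest ZT10 array lies among the stimulated arrays or above them.

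Markers of other tissues were read beside the immune genes, and none passed the test. Of 11 fat body markers 5 were higher, and their mean was 7.38 to 7.47 in stimulated arrays and 7.13 to 7.65 in wake arrays, while 6 of 12 haemocyte markers were higher, with a mean of 5.90 to 5.98 in stimulated arrays and 5.93 to 6.01 in wake arrays. Stimulated arrays all lay above wake arrays for 2 fat body markers, fit (0.72, adjusted p = 0.507) and Cyp6a17 (0.11), and for 1 haemocyte marker. They all lay below for 1 fat body marker, Lsp2 (-0.18), and 3 haemocyte markers, ush (-0.29), NimC1 (-0.27) and Nplp2 (-0.17). The mean of 17 antennal and chemosensory genes was 5.02, 4.77 and 4.58 in stimulated arrays and 4.57, 4.55 and 4.30 in wake arrays (difference 0.31; exact permutation p = 0.1, two-sided, the smallest that 3 against 3 arrays allow; 0.56 adjusted over 14 array measures). Of these 17 genes 15 were higher, 8 at an unadjusted p under 0.05 (limma) and none past the adjusted threshold. As background to these marker counts, 51.2% of all probe sets were higher, and 4.05% were higher at that unadjusted p. The odorant-binding protein gene Obp83b read 7.41, 6.76 and 6.02 in stimulated arrays and 6.34, 6.06 and 4.82 in wake arrays, and Orco, the co-receptor of odorant receptors, 4.21, 4.04 and 3.84 in stimulated and 3.88, 4.02 and 3.71 in wake arrays. The antennal mean was highest in stimulated replicate 1 and lowest in stimulated replicate 3, as were Drsl5 and Spn28Dc, whereas sr was highest in stimulated replicate 3. The part of antennal RNA in the results was not tested. The remaining 7 marker lists (photoreceptor, muscle, trachea and cuticle, gut and salivary gland, ovary, glia, neuron) had medians from -0.07 to 0.04.

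The largest rises by size were not those that passed. Of the 10 largest positive differences, 9 belonged to probe sets with several gene symbols or none, from 1.24 to 3.26, with standard errors of 0.312 to 0.715 and adjusted p from 0.146 to 0.524. In each of them the stimulated arrays lay above the wake arrays. These probe sets are not named, and the pools of a group differed widely in them.

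Among genes outside these groups, cher had the smallest p after sr. It encodes filamin, which crosslinks actin filaments, and read 5.62, 5.56 and 5.54 in stimulated arrays, against 5.02, 4.88 and 5.08 in wake arrays (0.58 ± 0.0766; adjusted p = 0.0144). The ZT10 arrays, at 4.89, 4.96 and 4.98, lay with the wake arrays. Miox encodes myo-inositol oxygenase, the enzyme that opens the ring of inositol. Its signal was 5.69, 5.72 and 5.91 in stimulated flies and 5.35, 5.21 and 4.99 in wake flies (0.59 ± 0.0973; adjusted p = 0.0388). As for sr, wake flies were lower than flies at ZT10, by 0.58 (adjusted p = 0.0472), and stimulated flies differed from those by 0.01 (adjusted p = 0.978). Ect3, which encodes a beta-galactosidase-like enzyme, read 5.75, 5.44 and 5.86 in stimulated arrays and 5.16, 5.06 and 4.95 in wake arrays (0.62 ± 0.107; adjusted p = 0.0426).

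The remaining called genes are known by number only. CG13315 was bright and rose to 9.52, 9.80 and 10.07 in stimulated flies, against 9.0, 9.12 and 9.06 in wake flies (0.74 ± 0.112; adjusted p = 0.0283). CG1572 rose by 0.52 ± 0.0869 (adjusted p = 0.0399), with all stimulated arrays between 6.26 and 6.34. CG42807 (0.82 ± 0.127, adjusted p = 0.0286) and CG5966 (0.57 ± 0.0906, adjusted p = 0.0319) rose at the dim end, with wake means of 3.39 and 2.82. Of the 10 named genes, 6 were also above ZT10 in stimulated flies at an adjusted p under 0.05 (cher, BomS2, CG42807, CG5966, CG1572 and Ect3), and 2 were below ZT10 in wake flies (sr and Miox). Over all probe sets, 35 (0.251%) differed between stimulated flies and ZT10, and 9 (0.0644%) between wake flies and ZT10.

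No named gene passed the test as lower. The 12 bright genes with the smallest p among those with non-overlapping lower values had differences from -0.52 to -0.28 and adjusted p from 0.257 to 0.511, and they were chosen on this comparison itself. They include Akap200, an anchor for protein kinase A (8.19, 8.67 and 8.19 in stimulated arrays, against 8.90, 8.76 and 8.79 in wake arrays). Also among them were shf, whose secreted product helps Hedgehog spread (-0.31), SMSr, related to sphingomyelin synthase (-0.33), and Rgk2, a small GTPase gene of the RGK family (-0.31). For hoe1 and SMSr, dimmer probe sets of the same gene gave differences between -0.09 and 0.03. CG3036 had the lowest value, with 5.41, 5.00 and 4.99 in stimulated arrays and 5.88, 5.51 and 5.56 in wake arrays (adjusted p = 0.257).

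Chaperone genes mostly had negative differences, and none passed. Of 17 cytosolic heat shock proteins and co-chaperones, 12 had negative differences, beside 48.8% of all probe sets, and the median was -0.13. At an unadjusted p under 0.05 (limma) 5 were lower, beside 2.99% of all probe sets, and none was higher. Stip1, which links Hsp70 to Hsp90, read 6.11, 6.17 and 5.79 in stimulated flies and 6.20, 6.42 and 6.53 in wake flies (-0.36 ± 0.110; adjusted p = 0.511). The Hsp40 gene DnaJ-1 read 7.74, 7.77 and 7.36 in stimulated flies and 8.08, 7.91 and 7.97 in wake flies (-0.36 ± 0.130; adjusted p = 0.610). CG1416, a relative of Hsp90 ATPase activators, had the same difference of -0.36 (adjusted p = 0.552). In all 3 genes stimulated replicate 3 was the lowest array, and the groups did not overlap. Without that array the differences were -0.24 for Stip1, -0.23 for DnaJ-1 and -0.22 for CG1416. Droj2, another Hsp40 gene, was at -0.24, and Hsc70-4, the constitutive Hsp70, at -0.20. Endoplasmic reticulum chaperones had a median of -0.02, and the brightest probe set of Hsc70-3, the Hsp70 of that compartment, was at -0.10 with overlapping groups, while a dimmer probe set of this gene was at 0.25 (unadjusted p = 0.0185) with stimulated arrays above wake arrays.

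**Figure D3:**
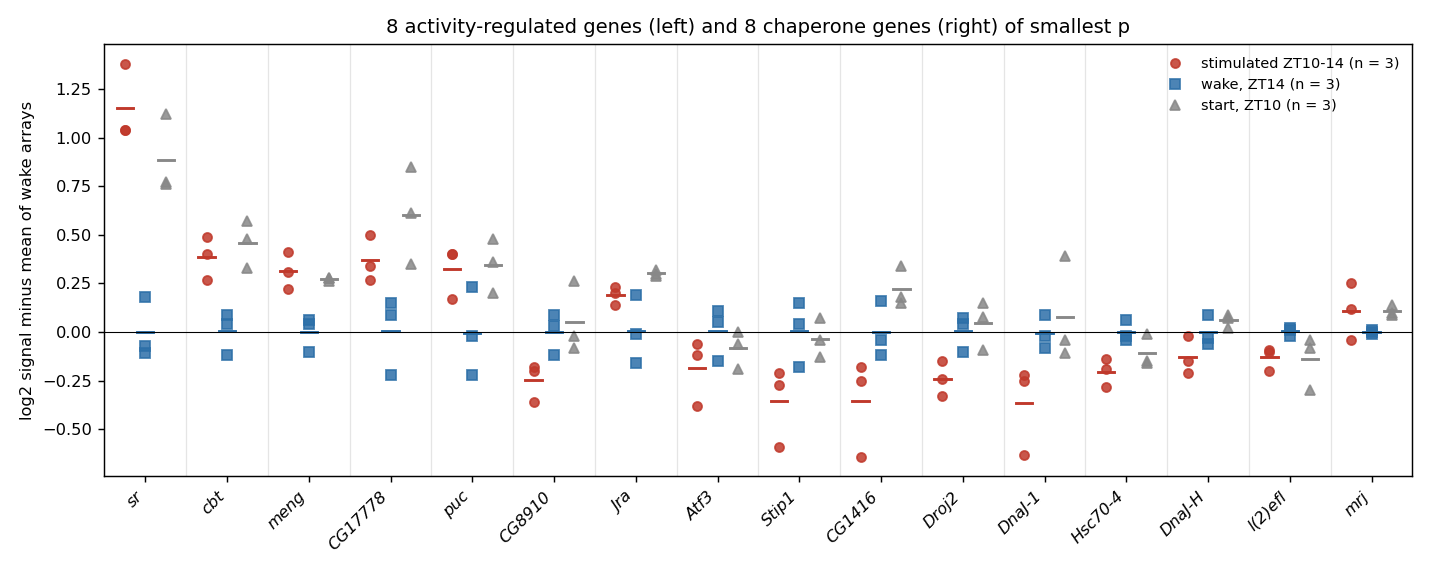
Log2 signal minus the mean of the wake arrays (vertical axis) for the 8 activity-regulated genes and the 8 cytosolic chaperone genes of smallest p (horizontal axis), with points for arrays and bars for group means. sr stands above the other activity-regulated genes, and 6 of the chaperone genes have all stimulated arrays below all wake arrays.

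The clock genes gave a check of the hour. tim read 6.90, 6.99 and 6.70 in stimulated flies, 6.93, 6.85 and 6.86 in wake flies, and 6.48, 6.32 and 6.37 at ZT10, so both ZT14 groups lay above ZT10 and on each other. Stimulated and wake flies differed in tim by -0.01 (95% interval -0.20 to 0.17), in per by -0.12 (-0.29 to 0.05), in vri by 0.13 (-0.02 to 0.28) and in Clk by 0.07 (-0.09 to 0.23). A dimmer probe set of tim gave -0.28 (unadjusted p = 0.0239). Of 13 clock and output genes none passed, and the median was -0.01. The genes of monoamine synthesis, transport and inactivation (14, median 0.02) and the monoamine receptors (15, median -0.07) had no gene past the test. Among these, ple, tyrosine hydroxylase, differed by -0.03 (-0.22 to 0.16) and Tbh, which makes octopamine, by -0.17 (-0.39 to 0.05). The dopamine receptor gene Dop1R1 differed by 0.27 with overlapping groups (adjusted p = 0.702). In 33 published fly sleep genes the median was 0.03 and none passed.

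**Figure D4:**
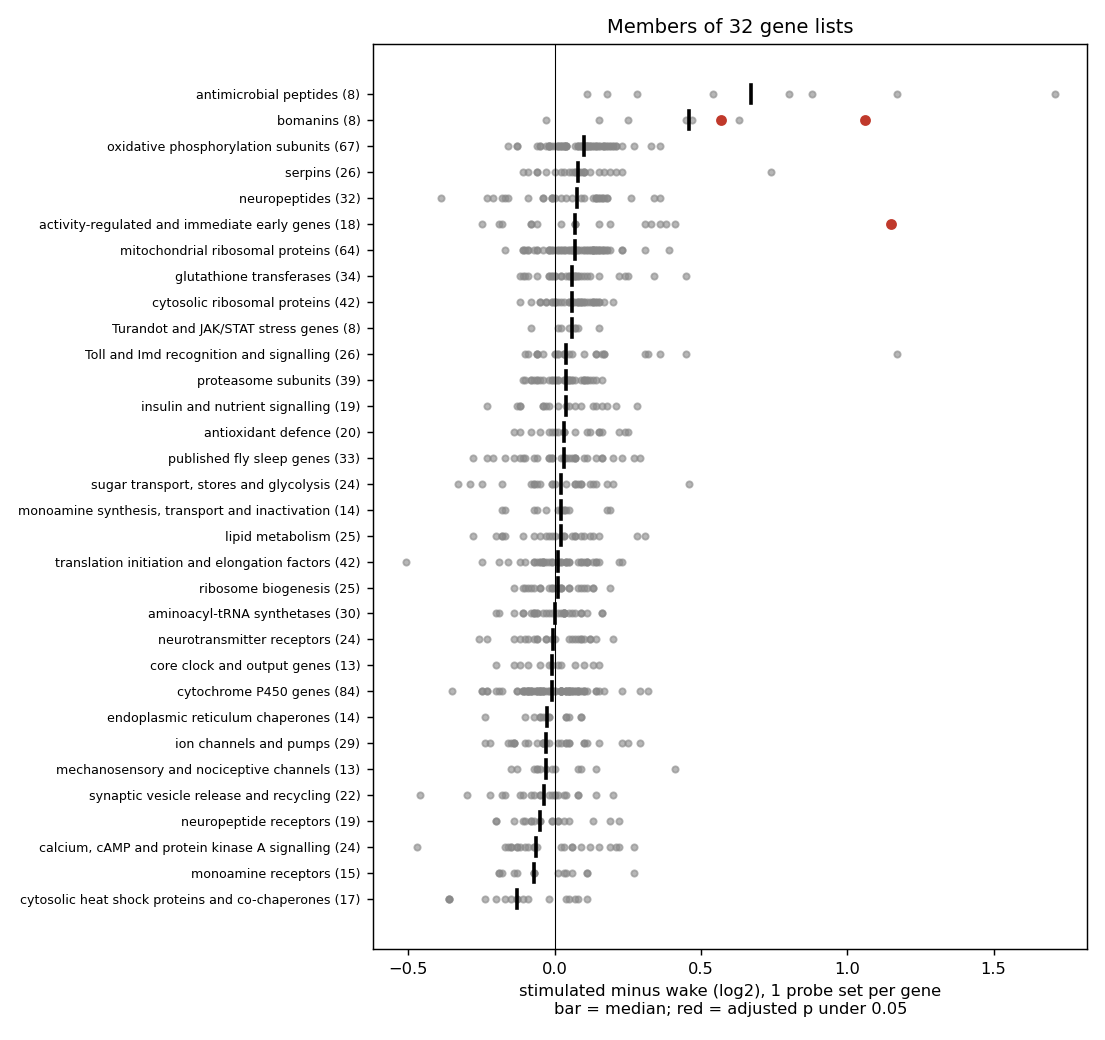
Stimulated minus wake difference in log2 units (horizontal axis) of each gene in 32 pathway lists (rows, with the number of genes on the array), 1 probe set per gene. Black bars are medians, and red points passed an adjusted p of 0.05; antimicrobial peptides and bomanins lie to the right at 0.67 and 0.46, cytosolic chaperones to the left at -0.13, and the medians of the other 29 lists lie between -0.1 and 0.1.

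The comparison with sleep deprivation asks whether handling alone moves the genes that deprivation moves. In the 21 deprivation arrays, 129 probe sets (0.924%) passed an adjusted p of 0.05 for deprived minus sleeping flies as a mean over 2, 4 and 6 h, 68 higher and 61 lower. None of those arrays enters the stimulation comparison. Stimulation gave an unadjusted p under 0.01, the limit the study's own text uses, for 44 of the 129 (34.1%, beside 1.73% of all probe sets). All 44 had the sign they had under deprivation, 34 higher and 10 lower. At the adjusted threshold 9 of the 129 passed (6.98%), again with the sign of deprivation, and these are 75% of the 12 called probe sets. The 3 called genes outside the set, Miox, CG42807 and Ect3, had deprivation differences of 0.39, 0.31 and 0.21 (adjusted p = 0.137, 0.144 and 0.215).

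Direction was shared by most of the set, also below these limits. Of the 68 probe sets raised by deprivation, 62 were higher in stimulated than in wake flies, with a median of 0.30 under stimulation and 0.38 under deprivation. Of the 61 lowered by deprivation, 49 were lower, with a median of -0.14 under stimulation and -0.32 under deprivation. The set was chosen on these deprivation differences, which enlarges their medians, so the sizes cannot be compared on equal terms. Together 111 of 129 (86.0%) had the same sign, beside 56.2% of all probe sets. Across the 129 probe sets the Pearson correlation of both differences was 0.82, and 0.46 across all, given as a description, since probe sets of one array share its pool and its quality.

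**Figure D5:**
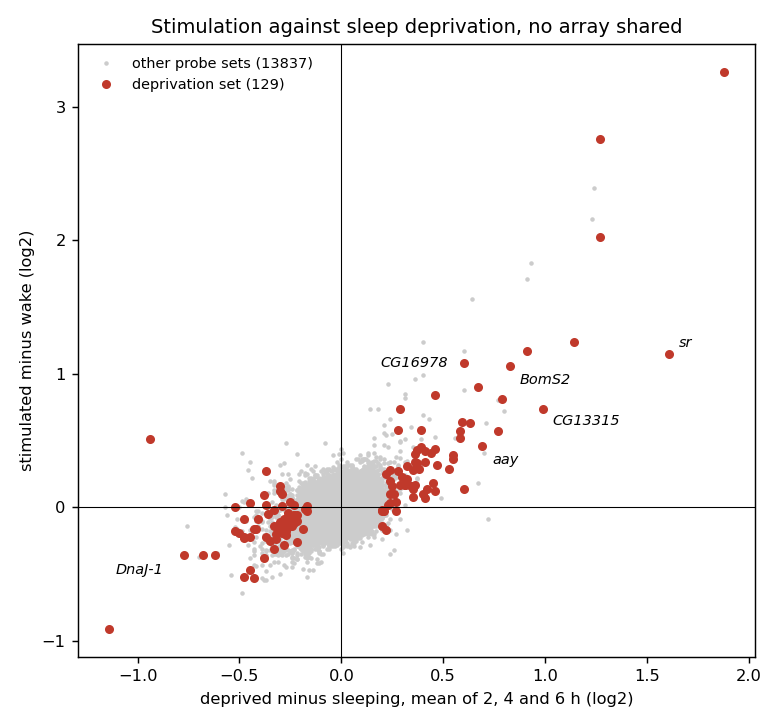
Stimulated minus wake (vertical axis) against deprived minus sleeping as a mean over 2, 4 and 6 h (horizontal axis), both in log2 units, for 13837 probe sets (grey) and the 129 of the deprivation set (red). Most red points lie in the upper right and lower left, sr lies at 1.61 and 1.15, and a few lowered points such as the one at -0.94 and 0.51 lie above 0.

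Beside the genes already described, members of the set at an unadjusted p under 0.01 included aay, which encodes a phosphoserine phosphatase. It read 6.90, 7.05 and 7.23 in stimulated arrays and 6.69, 6.53 and 6.59 in wake arrays (0.46 ± 0.106; adjusted p = 0.257), beside 0.69 under deprivation. CG16978 differed by 1.08 ± 0.232 (adjusted p = 0.202), beside 0.60 under deprivation, and CG16772 by 0.64, beside 0.59. CG4991 (0.41), slf (0.42) and the lipase gene Lip4 (0.31) lay close to their deprivation values of 0.44, 0.41 and 0.32. On the lower side were Akap200 (-0.47, beside -0.45), CG5618 (-0.38, beside -0.38), hoe1 (-0.28, beside -0.28) and the transporter gene Orct (-0.26, beside -0.22). The chaperone genes Stip1 and CG1416 were at -0.36 each under stimulation, beside -0.62 and -0.68 under deprivation.

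The members that did not share the sign were mostly genes lowered by deprivation. pkm, which deprivation lowered by 0.37, read 0.27 higher in stimulated flies (unadjusted p = 0.0386). Tango10 (0.12, beside -0.30), Pabp2, a poly(A)-binding protein gene (0.09, beside -0.38), sov (0.03, beside -0.45), CG33229 (0.02, beside -0.37) and the co-chaperone gene Sgt1 (0.01, beside -0.29) were near 0 under stimulation. One probe set of apolpp, the lipophorin precursor, was at 0.00, beside -0.52. The brightest probe set of apolpp, which is outside the set, was at -0.20, beside -0.27, and so shared the sign. Cht5, a chitinase gene, was at -0.14, beside 0.20 under deprivation.

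Whether the effects differ in size was tested at 4 h, the duration they share, in a fit of all 30 arrays. The treatments differ in hour, since stimulation ran from ZT10 and deprivation from ZT14. No probe set passed for 4 h deprivation minus stimulation (0%; limma), and 246 (1.76%) had an unadjusted p under 0.05. For sr the difference between the effects was 0.34 (95% interval -0.12 to 0.80), with 1.49 under 4 h of deprivation and 1.15 under stimulation. It was -0.11 (-0.91 to 0.69) for BomS2, 0.13 (-0.86 to 1.11) for Mtk and -0.05 (-0.37 to 0.28) for cher, intervals wide enough to hold sizable differences either way. For aay it was 0.48 (0.07 to 0.88; unadjusted p = 0.0229; adjusted p = 1). Within the set, 14 probe sets had an unadjusted p under 0.05, and in 13 of them the difference ran in the direction of the deprivation effect, on which the set had been chosen. They include the receptor tyrosine kinase gene Pvr (0.10 under stimulation, 0.40 under 4 h of deprivation) and, as the single exception, Spn28Dc (0.74 under stimulation, 0.26 under deprivation). Over all probe sets the smallest p-values among named genes were those of Acsx2, Cpr72Ec, CG10700, kumpel and Tsp42Ep. They had stimulation differences of 0.41, 0.40, 0.25, 0.20 and 0.19. Their differences under 4 h of deprivation had the other sign, at -0.30, -0.20, -0.13, -0.19 and -0.15. The other 5 probe sets of kumpel gave stimulation differences from -0.24 to -0.08, opposite in sign.

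As a measure of RNA quality, the 3' minus 5' signal of 3 control transcripts was higher on average in stimulated arrays. A higher value means relatively less 5' signal, as in less intact RNA. The 3' minus 5' signal of the eIF-4a control was 2.29, 2.48 and 2.72 in stimulated arrays and 1.69, 2.11 and 2.34 in wake arrays (difference 0.45; exact permutation p = 0.2, two-sided). The actin and GAPDH controls differed by 0.16 and 0.17. With the 3' to 5' difference as a covariate, an alternative chosen after seeing the data, 5 probe sets passed, sr among them, and 36 of the 129 deprivation probe sets had an unadjusted p under 0.01.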

How the data were processed

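Per the labels, brain RNA was hybridised to Affymetrix Drosophila 1.0 arrays. The authors deposited log2 values from RMA (robust multi-array average), which corrects background and normalises quantiles, according to the design text. In the submitters' processing notes the affy package is named, and its version is not given in the sources used here. Quantile normalisation hides any change common to most genes. Apart from that step, differences between dim signals near the background are compressed. It is not stated whether both experiments were normalised together, so differences were taken within an experiment. Of 14010 probe sets, 44 controls were left out. The platform annotation gave 1 symbol for 12443, several for 327 and none for 1196, with symbols updated through gene number (12394 matched, 49 kept). Groups came from titles. limma (3.58.1, R 4.3.3; lmFit, eBayes; two-sided) was fitted to the 9 active period arrays with 1 mean per group and 6 residual degrees of freedom, and p-values were adjusted by Benjamini-Hochberg over 13966 probe sets. The fit was tested on simulated data. Array measures were compared by exact permutation. Same-numbered stimulated and wake arrays had deviations from their group means correlated at 0.09, -0.15 and 0.06, so numbers were not treated as pairs.

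The groups, the 42 gene lists and the rules were chosen with earlier results of these data known. Named genes are all past the threshold, then the smallest p among bright, non-overlapping probe sets up to 12 each way, up to 4 per list, a fixed set (such as sr, tim and Mtk), the genes of the largest deprivation differences, and the 5 smallest p where no test passed; others singled out were chosen after their values were seen. In lists, each gene entered with its brightest probe set. Alternatives were a filter on dim probe sets, normalisation, centring, replicate and chip lot blocks, the arrays fitted, variance model, array weights, threshold, 1 probe set per gene, other deprivation sets, the study's Fs test and omission of each array.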

Additional observations from a re-analysis of the deposited data

How the results depend on the processing

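The count of 12 probe sets depended on the fit: it was 35 with only the 6 arrays compared, 2 with all 30 arrays, 5 with chip lot as a block, 5 with the 3' to 5' covariate, and 1 to 5 without single arrays. The chip lot block is the same fit as leaving out wake replicate 1. The study's Fs test, with 100 permutations, called 0 at a q-value of 0.05 and 28 at 0.10 (221 at p under 0.01). The other alternatives gave 8 to 18. The causes were not tested. Within the deprivation set, the count of 44 was 58 of 216 for the set at an adjusted p of 0.10, 16 of 31 for the set from an F test, 40 by the Fs test, and 31 to 39 without single arrays. In the set of 129, all those counted had the sign of deprivation under every alternative run except 2 without stimulated replicate 3 and 2 with the covariate. The replicate block gave 12 calls, 10 of them shared, and 45 in the set. The difference of the effects stayed at 0 calls in all alternatives run (lowest adjusted p 0.164, with array weights, where 1587 had an unadjusted p under 0.05). The scan day block could not be fitted, since all 9 arrays share a day.

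Among 752 gene values, 11 changed sign. ple was at 0.03 with the lot block and without wake replicate 1, at 0.02 without stimulated replicate 3 and at 0.09 with the covariate; without wake replicate 3 it was at -0.11. tim was at 0.01 with the lot block, without wake replicate 1 and with the covariate, and at 0.07 without stimulated replicate 3; without stimulated replicate 2 it was at -0.08. Hr38 was at -0.04 without stimulated replicate 3 and -0.01 without wake replicate 3, and Hsc70-3 at 0.02 with the covariate. Of 504 list medians, 10 moved by more than the spread. Leaving out dim probe sets gave 0.17 for activity-regulated genes and 0.63 for antennal markers. With 3 arrays a group, small effects may be missed, and dim genes such as Hr38, CG42807 and CG5966 lie where signal is compressed.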

Other observations

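The gene fit and the neuropeptide list are described here, and neither gave a call for stimulated minus wake. fit, a satiety signal made in the fat body of females, read 7.52, 7.38 and 8.25 in stimulated flies and 7.20, 7.25 and 6.53 in wake flies (0.72 ± 0.215; adjusted p = 0.507 in limma). Both groups lay above the ZT10 arrays, at 6.27, 6.01 and 5.72, with a stimulated minus ZT10 difference of 1.71 (adjusted p = 0.00234). Of 32 neuropeptide genes none passed, with a median of 0.08. Trissin read 6.98, 7.03 and 7.12 in stimulated arrays and 6.59, 6.71 and 6.74 in wake arrays (0.36; adjusted p = 0.257), and Nplp3 differed by 0.34 (adjusted p = 0.463). Both were lower in wake flies than at ZT10, by 0.39 for Trissin (adjusted p = 0.117) and 0.58 for Nplp3 (adjusted p = 0.0472). Mip, which encodes the myoinhibitory peptides, differed by -0.23 (adjusted p = 0.637).

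Of 67 genes for subunits of oxidative phosphorylation, 55 were higher in stimulated flies, beside 51.2% of all probe sets, with a median of 0.10 and none past the test. The mean of the list was 7.60 to 7.61 in stimulated arrays and 7.40 to 7.61 in wake arrays, and without wake replicate 1 the median was 0.05. Ribosomal protein lists leaned the same way, with 34 of 42 cytosolic and 49 of 64 mitochondrial genes higher and none past the test. Their medians were 0.06 and 0.07, and 0.02 and 0.01 without wake replicate 1.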
